A study of Caenorhabditis elegans with 2 samples.

Results

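Peaks of ALY-1-GFP that lay just after the ends of protein-coding genes on the autosomes of early Caenorhabditis elegans embryos numbered 672, of 24830 autosomal candidate peaks and 30000 in all. They were chosen by position alone. The summit had to lie within 500 bp downstream of the annotated 3′ end of a protein-coding gene and outside every protein-coding gene. It also had to lie outside promoter windows (1000 bp upstream to 200 bp downstream of a 5′ end) and more than 250 bp from any tRNA, snoRNA, snRNA or rRNA gene, called RNA genes below. The 672 peaks followed 618 gene ends, and 54 of these ends had 2 peaks each.

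The peaks come from ChIP-seq, in which sheared chromatin is precipitated with an antibody and the DNA sequenced. Hermaphrodites of strain OP502 supplied the embryos, collected 0 hours after synchronisation by egg bleaching. The strain carries unc-119(tm4063) on chromosome III and the transgene wgIs502, which supplies an ALY-1 whose C terminus carries GFP-FLAG, and the antibody was against GFP. The 2 biological replicates form 1 group. No precipitation from worms without the tag was analysed here, so a peak may hold signal that does not depend on ALY-1. The labels give whole organisms as the material, so no cell type can be told from another.

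Each replicate has a list of 30000 candidate peaks ranked by the peak caller's signal value, and a further 30000 were called on both together. The lists hold background as well as peaks. The authors kept 881 of the pooled candidates as the set passing the irreproducible discovery rate (IDR) procedure, which compares how the replicates rank peaks. Those 881 are the strongest of the pooled list by signal value, so membership does not show that both replicates ranked a given peak alike. These are called thresholded peaks, and 645 of them are autosomal. Depth is unknown, because the files hold no read counts. Intervals are exact, at 95%, and cover counting error only. Among the peaks after gene ends, 62 neighbouring pairs overlapped. Each peak of a pair was counted separately, though both can match the same replicate peak. With a single group and peaks that share 1 pair of libraries, no test was made, and differences between sets of peaks are given as descriptions.

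ALY-1 is a worm member of the Aly/REF adaptors, which bind RNA. In yeast and mammals these proteins are loaded onto messenger RNA during transcription, as part of the TREX complex, and hand it to the export receptor. At the end of a gene, RNA polymerase II runs past the cleavage site while the new RNA is cut behind a poly(A) signal, most often AATAAA, and polyadenylated. A chromatin signal just after a gene end could therefore lie over polymerase that has passed the cleavage site, but also over anything else that occupies the gap before the next gene. Worm genes are closely spaced and many gaps are short.

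The bases around the summits of the strongest thresholded peaks are shown to make visible what the gaps contained. Each sequence is 101 bases on genome build ce11, read from the RefSeq copy of that assembly on the strand of the gene before it. The capital in the middle is the summit. Longer runs of capitals mark matches, on either strand, to the letters searched for as the internal B box of tRNA genes (GGTTCGA, any 2 bases, then CC), or to TCTAGTGGTTA, which some tRNA genes hold. The first 5 are the strongest of the 14 thresholded members. The last was added after its match was seen, and the stretch TCTAGTGGTTA was also picked from the summit sequences.
alh-3 (IV:11026148-11026248, plus strand): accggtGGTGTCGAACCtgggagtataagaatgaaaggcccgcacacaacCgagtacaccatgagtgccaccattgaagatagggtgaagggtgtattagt
D2096.7 (IV:8375558-8375658, minus strand): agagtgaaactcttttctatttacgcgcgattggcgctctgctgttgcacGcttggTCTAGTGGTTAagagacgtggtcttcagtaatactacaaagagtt
ZC155.4 (III:5211397-5211497, minus strand): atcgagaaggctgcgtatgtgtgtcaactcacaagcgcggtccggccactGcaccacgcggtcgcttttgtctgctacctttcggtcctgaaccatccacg
R05D3.8 (III:8356426-8356526, minus strand): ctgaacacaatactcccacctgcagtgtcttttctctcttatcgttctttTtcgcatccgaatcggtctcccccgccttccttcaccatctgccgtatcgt
pxd-1 (III:4010297-4010397, plus strand): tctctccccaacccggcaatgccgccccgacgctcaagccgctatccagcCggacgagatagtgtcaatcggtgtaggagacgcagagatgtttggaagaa
Y17D7C.6 (V:18712183-18712283, plus strand): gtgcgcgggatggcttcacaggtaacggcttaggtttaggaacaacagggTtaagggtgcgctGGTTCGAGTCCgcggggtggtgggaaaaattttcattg

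Away from RNA genes, peaks after gene ends were thresholded about as often as other autosomal candidates. Of the 672, 14 were in the thresholded set (2.08%, interval 1.14 to 3.47%), beside 2.6% of all autosomal candidate peaks and 1.97% of those away from RNA genes. Promoter windows had 3.15% of 6222 peaks thresholded (2.73 to 3.61%), introns 1.54% of 6441, exons 1.17% of 7235 and the remaining intergenic space 2.28% of 3720. The interval of the peaks after gene ends holds the background share, the promoter share and the intergenic share. Its lower bound also lies just under the share of exons. Peaks within 250 bp of an RNA gene stood far above all of these, with 166 of 540 thresholded (30.7%, interval 26.9 to 34.8%).

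**Figure D1:**
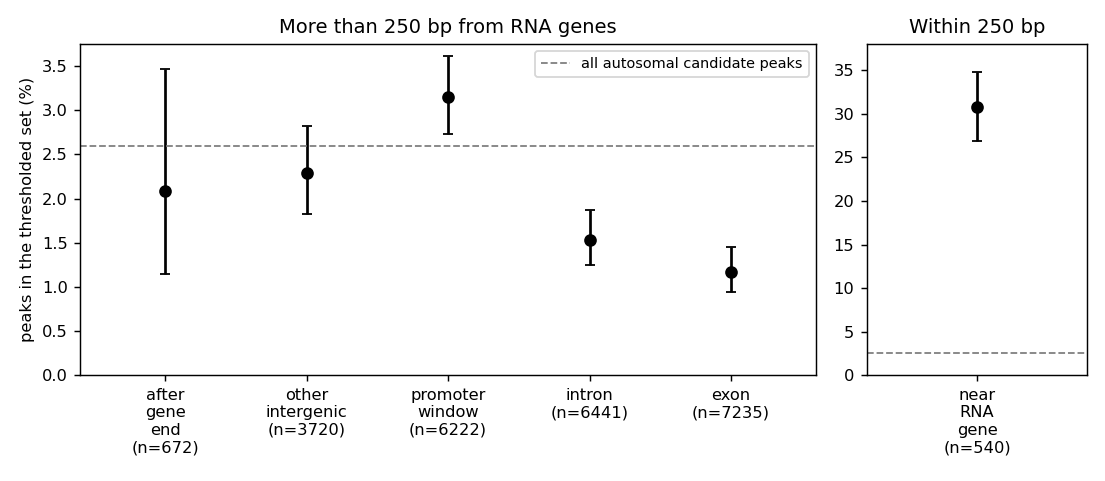
Share of autosomal candidate peaks in the thresholded set (y axis, percent) by the position of the summit, with exact 95% intervals as bars and all autosomal candidates as the dashed line. The 672 peaks after gene ends, at 2.08%, have an interval that includes the dashed line, while peaks near RNA genes, on their own axis, reach 30.7%.

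The distance kept from RNA genes removed few peaks after gene ends, and with them 15 of 29 thresholded ones. Without it, 708 autosomal peaks lay after gene ends and 29 were thresholded (4.10%). Of the 36 peaks it left out, 16 lay nearest a tRNA gene, with 6 thresholded, 16 nearest a snoRNA gene, with 9 thresholded, and 4 nearest an snRNA gene, with 0 thresholded. A further 6 members lay 251 to 500 bp from an RNA gene and 0 of them was thresholded, so a distance of 500 bp gave the same count of 14.

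Over the whole list, too, their strength was close to that of other candidates. The median pooled rank was 15606 among the 672 and 15163 among all autosomal candidates, with signal values of 32.8 and 33.2. Of the 672, 60 (8.93%, interval 6.88 to 11.3%) ranked in the first 3000, against 9.43% of all autosomal candidates. The signal values ran from 22.6 to 552, and −log10 q from 0.0543 to 2.73 with a median of 0.205, so most of these candidates carried weak statistical support by the authors' own measure.

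The strongest peak after a gene end ranked 3 in the whole pooled list. It lay at IV:11025899-11026373, 328 bp after the end of alh-3, which encodes a 10-formyltetrahydrofolate dehydrogenase, in a gap towards the convergent heme transporter gene hrg-5. Its signal value was 229 in replicate 1 and 315 in replicate 2, at ranks 5 and 3 there, and 552 in the pooled list. The gene F36H1.17, typed as ncRNA, held the summit, which lay 86 bp from the microRNA gene mir-51, which belongs to a large worm microRNA family. Its sequence held the reverse complement of the B box letters, centred 39 bp from the summit. No gene annotated as a tRNA, snoRNA, snRNA or rRNA lay nearer than 56949 bp.

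The peak at D2096.7, whose product RefSeq describes by an ELYS domain, was the second strongest. It was narrow, at IV:8375533-8375676, with its summit 114 bp after the end of D2096.7 and 237 bp from the end of aagr-1, a relative of acid alpha-glucosidase genes, which points towards it. Signal values were 91.8 in replicate 1 and 118.9 in replicate 2, and the ranks of 75, 80 and 77 in replicate 1, replicate 2 and the pooled list nearly coincided. No gene of another non-coding class was annotated within 8916 bp, and the nearest snoRNA gene, D2096.14, lay 3212 bp away. Next to the summit the sequence read TCTAGTGGTTA. These letters were picked from the summit sequences, so their presence here tests nothing. Of 612 annotated tRNA genes 40 (6.54%) hold them on their own strand. Of 24830 autosomal candidate windows of 200 bp 16 do (0.0644%), this one included. At summits near RNA genes, which the rule leaves out, the share was 2.22%.

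The third, at III:5211205-5211688, lay 334 bp after the end of ZC155.4, a gene for a predicted glycerophosphodiester phosphodiesterase. Its signal value was 85.1 in replicate 1 and 126 in replicate 2, at ranks 92 and 72. The summit lay inside srpr-2.1, which the annotation types as ncRNA, a class the rule did not leave out, and RefSeq describes as an unclassified non-coding RNA. Its symbol may stand for the RNA of the signal recognition particle, which neither annotation states. If the 5 genes with srpr symbols were also kept at 250 bp, 2 members would drop out and 13 of 670 would be thresholded (1.94%). These 3 peaks ranked within the first 100 in each replicate, and the next of the 14 ranked 240 in the pooled list.

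The remaining 11 thresholded peaks had signal values of 87.3 to 127. R05D3.8, a putative RNA-binding protein gene, preceded a peak 411 bp after its end (III:8356234-8356717) that ranked 219 and 347 in replicates 1 and 2. A second, weaker member at the same end overlapped it and ranked 1328. The peak after pxd-1, a gene with a PSI domain (387 bp, III:4010105-4010588) ranked 546 and 226. That after eef-2, which encodes the elongation factor that moves the ribosome along the message, lay 388 bp past the gene end (I:9167098-9167581) and ranked 304 and 427. After Y17D7C.6, an uncharacterised gene, the peak lay 377 bp out and ranked 235 and 540. Its summit sequence held the B box letters centred 18 bp from the summit, with the nearest RNA gene 105642 bp away.

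The peak after rbm-39, for a protein with RNA recognition motifs, lay 463 bp from the gene end and ranked 1314 and 528. The weakest of the 14, after ntl-9, a subunit of the CCR4-NOT complex that shortens poly(A) tails, lay 171 bp out and ranked 765 and 870, with the ncRNA gene C26E6.15 3 bp from the summit. The peak after ifo-1, which organises intermediate filaments of the intestine, lay 442 bp out, inside the ncRNA gene F42C5.16, and ranked 608 and 424. That after wwp-1, an E3 ubiquitin ligase gene, lay 172 bp out and ranked 1580 and 1557 in the replicates although it ranked 713 in the pooled list.

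The greatest differences in rank between replicates were at C28H8.3, T28F4.1 and rbm-39. C28H8.3, a putative helicase gene, had signal values of 48.6 and 43.5 in replicates 1 and 2, at ranks 457 and 1618. For T28F4.1, which has a SERTA domain, they were 62.0 and 49.3 at ranks 188 and 1018. The peak after the uncharacterised gene Y50D4A.6 lay 322 bp past that gene and 354 bp from the end of the convergent wrb-1, and ranked 1259 and 608. In each replicate 11 of the 14 were among its own 881 strongest peaks, and 9 were in both.

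**Figure D2:**
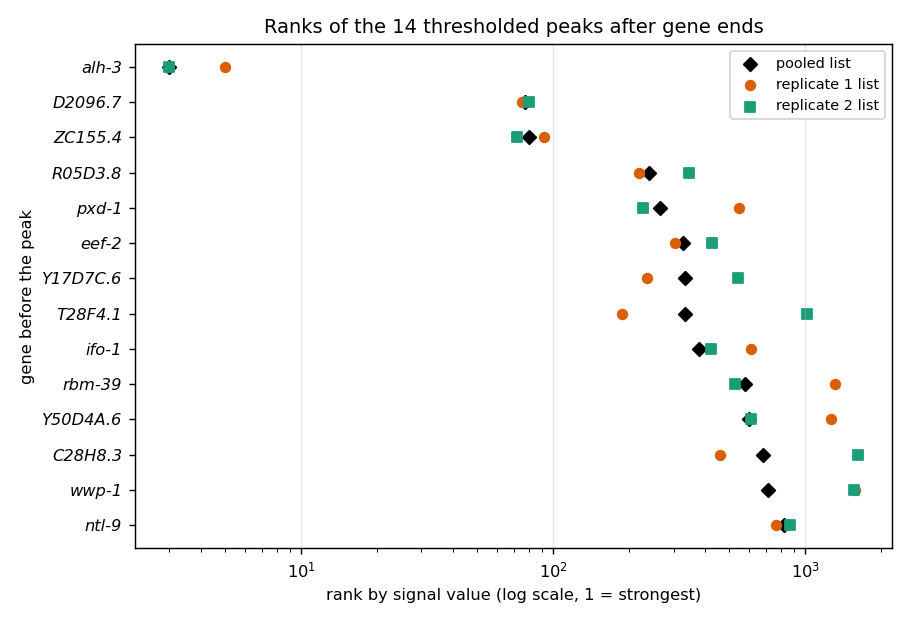
Rank by signal value (x axis, log scale, 1 is strongest) of the 14 thresholded peaks after gene ends in the pooled list and in each replicate's own list, by the gene before the peak. The peaks after alh-3, D2096.7 and ZC155.4 rank within the first 100 in all 3 lists, and those after T28F4.1 and C28H8.3 lie farthest apart between replicates.

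No thresholded summit lay right at a gene end. None of the 128 peaks whose summit lay within 100 bp of it was thresholded. The exact interval of that share reaches 2.84%, which includes the background of 2.6%, and the strongest of the 128 had a signal value of 74.1. Beyond 100 bp 14 of 544 were (2.57%, interval 1.41 to 4.28%). The 14 summits lay 114 to 463 bp out with a median of 331 bp, and 4 of the 14 peaks covered the gene end itself. Among all 672, the median distance was 245.5 bp and 332 peaks (49.4%) covered the end. In replicate 2's own list 0 of 135 peaks within 100 bp were among its 881 strongest, but in replicate 1's list 2 of 151 were.

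Within the 500 bp, the density of candidates was also lowest next to the gene end. Counted against the bases that meet the rule at each distance, there were 177 peaks per Mb within 100 bp of the end (interval 148 to 211) and 280 per Mb at 301 to 400 bp (234.9 to 331). In the replicates' own lists the same bins gave 209 and 249 per Mb in replicate 1, and 187 and 290 in replicate 2. Beyond 500 bp the density was 253 per Mb at 501 to 600 bp and 177 at 901 to 1000 bp. Most peaks were 484 bp wide, wider than a bin. Just inside the limit of 500 bp, at 451 to 500 bp, 67 peaks had a median signal value of 33.9 and 1 was thresholded. Just outside, at 501 to 550 bp, the median over 57 peaks was 30.2 and 0 were.

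**Figure D3:**
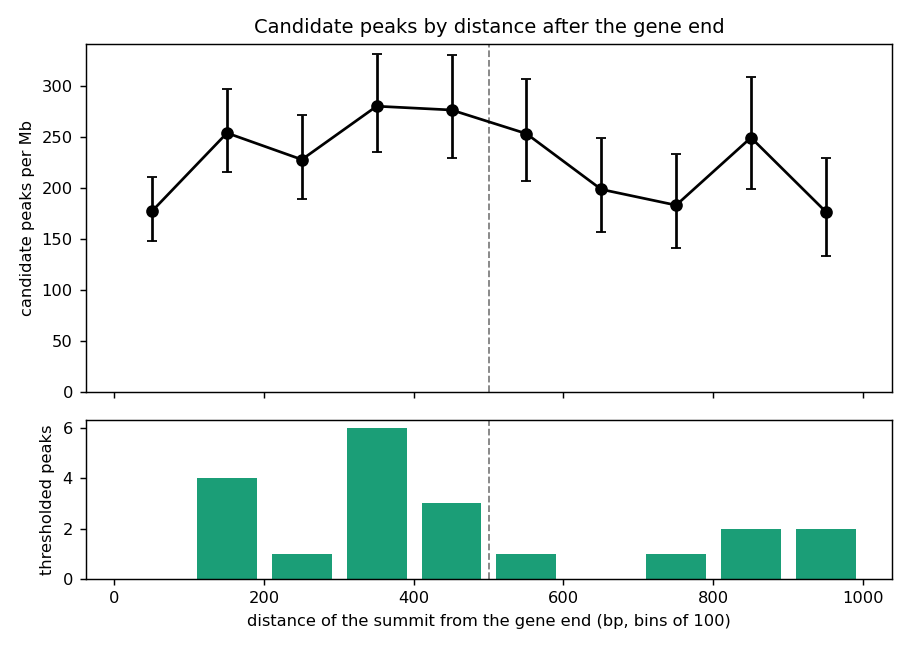
Top, autosomal candidate peaks per Mb of sequence that meets the rule (y axis) in bins of 100 bp after the gene end (x axis), with exact 95% Poisson intervals. Below, thresholded peaks per bin, and the dashed line marks 500 bp: the first bin has the lowest density within that limit, at 177 per Mb, and no thresholded peak.

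Per base, fewer candidates lay between genes that point at each other than after genes followed by another in the same direction. Convergent gaps held 255 of the 672 peaks (37.9%, interval 34.3 to 41.7%) but 44.9% of the bases that meet the rule. That corresponds to 201 peaks per Mb, against 267 per Mb in tandem gaps, which held 416 peaks. Replicate 1's own list gave 217 and 265 per Mb and replicate 2's 200 and 271, so the order was the same in each. Over the whole list the convergent peaks were also the weaker, with a median rank of 17254 and signal value of 31.2, against 14986 and 33.4 for tandem peaks. In the first 3000 ranks lay 7.84% of the convergent peaks (interval 4.86 to 11.9%) and 9.62% of the tandem ones (6.96 to 12.9%), so these shares overlapped. Of the convergent peaks 6 (2.35%) were thresholded and of the tandem ones 8 (1.92%), and both intervals include the background of 2.6%. In 67 convergent cases both gene ends lay within 500 bp of the summit, and 2 of these were thresholded, those at D2096.7 and Y50D4A.6.

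The rule leaves tandem peaks only in long gaps, since the promoter window of the next gene is excluded. Their median distance to the next gene was 2766 bp, against 916 bp for convergent peaks. With a promoter window of 500 bp upstream and 100 bp downstream the convergent share was 31.6%, and with one of 1500 bp upstream it was 43.1%. The convergent share of the bases was not counted for these windows. These values therefore do not show whether the difference per base held.

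Chromosomes differed as all candidate peaks did. Peaks after gene ends were densest on chromosome III (359 per Mb meeting the rule) and I (332), and sparsest on V (158) and IV (205), with 241 on II. All autosomal candidates followed the same order, from 375 per Mb on III to 220 on V. Thresholded peaks after gene ends numbered 5 on III, 4 on IV, 3 on I, 2 on V and 0 of 135 on II, where the interval of the share reaches 2.70% and includes the background.

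Both replicates held a candidate peak at 392 of the 672 (58.3%, interval 54.5 to 62.1%), against 60.8% of all autosomal candidates. Replicate 1 held 501 of the 672, replicate 2 held 536, and 27 (4.02%) were matched in neither, against 2.78% of autosomal candidates. The share depended on rank. All 60 peaks in the first 3000 pooled ranks were matched in both replicates, and of the 234 ranked beyond 20000, 72 (30.8%) were, equal to the 30.8% of autosomal candidates there. Over the 392 peaks in both, the ranks in the replicates had a Spearman correlation of 0.44, and over the 15085 autosomal peaks in both it was 0.41. These points share 1 control alignment and were selected on the pooled signal. The median ratio of the larger to the smaller rank was 1.77, against 1.95 over the 15085 autosomal peaks. In replicate 1 210 of the 392 ranked higher, as did 7593 of the 15085.

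**Figure D4:**
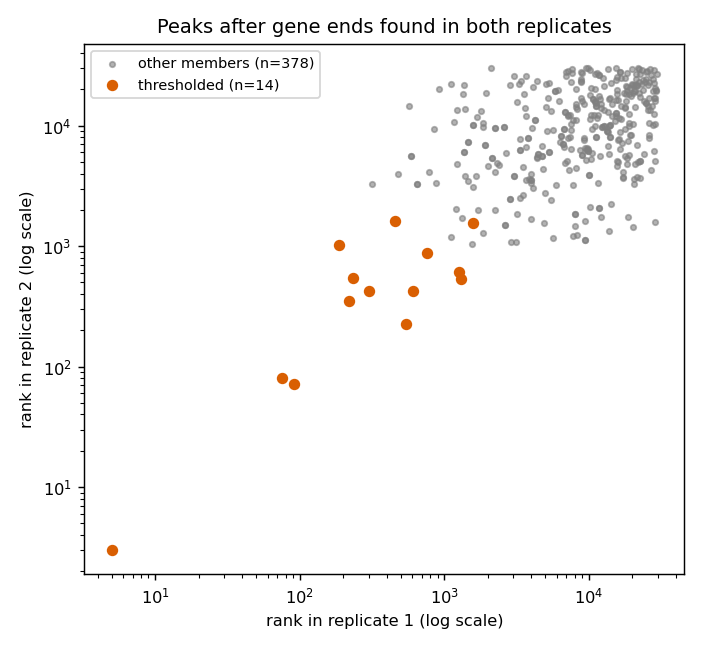
Rank in replicate 1 (x axis) against rank in replicate 2 (y axis), both on log scales, for the 392 peaks after gene ends found in both replicates, with the 14 thresholded peaks in orange. The thresholded peaks, chosen by their pooled signal, rank 5 to 1580 in replicate 1 and 3 to 1618 in replicate 2. The other 378 spread widely, and some of them lie in the same range.

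Annotated non-coding genes of classes that the rule did not use lay within 250 bp of 111 of the 672 summits (16.5%, interval 13.8 to 19.5%). The bases that meet the rule were near such genes at 17.3%, and 11.2% of all autosomal candidates were. The classes departed from the bases in different directions. Genes typed as ncRNA were near 53 peaks (7.89%, interval 5.96 to 10.2%) against 2.41% of the bases, but 7.23% of all autosomal candidates were near such a gene too. The piRNA genes, whose small RNAs guard the germ line, were near 8 peaks (1.19%) against 5.25% of the bases and 1.07% of all autosomal candidates. Pseudogenes were near 48 (7.14%, interval 5.31 to 9.36%), against 9.35% of the bases but 2.44% of all autosomal candidates. MicroRNA genes were near 5 peaks, lincRNA genes near 5 and antisense RNA genes near 1.

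Of the 14 thresholded peaks 4 lay near an ncRNA gene, those after alh-3, ZC155.4, ifo-1 and ntl-9. Thus 4 of the 111 peaks near another non-coding gene were thresholded (3.60%, interval 0.990 to 8.97%) and 10 of the 561 away from one (1.78%, 0.858 to 3.25%). For all autosomal candidates away from RNA genes the corresponding shares were 4.77% and 1.65%. The microRNA genes were mir-51, already described, mir-45, mir-72, mir-2218b and mir-53. The summit inside mir-45 ranked 944, after the end of top-2, a topoisomerase gene, and was the strongest peak after a gene end outside the thresholded set, with a signal value of 83.6. The summit 184 bp from mir-53, which belongs to the same family as mir-51, followed hrg-5 at the other end of that gap and ranked 7787.

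Internal tRNA box letters were rare. The B box letters occurred, on either strand, within the 200 bp around 10 of the 672 summits (1.49%). They occurred at 0.878% of all autosomal summits, which include the 21.7% at summits near RNA genes, and at 0.511% of summits in other intergenic space. Of the 612 annotated tRNA genes, 394 (64.4%) hold them on their own strand. They were found at 2 of the 14 thresholded peaks, those after alh-3 and Y17D7C.6. Another match lay 14 bp from the summit of a peak 35 bp after par-6, a cell polarity gene of the early embryo, and that peak ranked 2874. At npp-20, a nucleoporin gene, a match lay 16 bp from a summit that ranked 8127. The upstream motif of piRNA genes, CTGTTTCA, occurred at 5 of the 672 (0.744%) and at 1.04% of all autosomal summits. A run of 8 T on either strand occurred at 16.8% and 14.4%. The letters AATAAA stood on the sense strand in the last 50 bases before 279 of the 618 gene ends (45.1%), against 46.1% of the 8173 ends with bases that meet the rule. Among ends with an annotated 3′ UTR it was 279 of 538 (51.9%), against 58.0% of 6417.

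The sequence under these peaks was slightly richer in A and T than under all autosomal candidates together, but close to that in promoter windows and introns. The median GC content of the 200 bp around the summit was 40.0%, against 42.0% for all autosomal candidates. It was 40.5% for peaks in promoter windows and in introns, 42% in other intergenic space and 45% in exons. Thresholded peaks were richer in GC, with a median of 47.5% over the 14 after gene ends, against 39.5% over the other members. The same held for all thresholded autosomal peaks away from RNA genes (50.5%) against those not thresholded (42.0%). The part of GC content in the signal was not tested. An annotated 3′ UTR was present at 538 of the 618 genes (87.1%) and at all 14 genes with a thresholded peak. The share was 78.5% of genes with bases that meet the rule and 83.7% of all autosomal protein-coding genes.

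In the pooled list, a candidate peak followed a larger share of the ends of translation factor, mRNA export and ribosomal protein genes than of protein-coding genes in general. It followed a smaller share of the ends of chemoreceptor genes with sr symbols. Of the 8173 autosomal gene ends with bases that meet the rule, 618 (7.56%) had a peak. Many genes of these lists had no such end. It was present at 6 of 37 autosomal translation factor genes, 17 of 39 mRNA export genes and 30 of 79 ribosomal protein genes. Among the translation factor genes 5 of these 6 ends had a peak (83.3%, interval 35.9 to 99.6%), in replicate 1's own list 5 and in replicate 2's 4. They were eef-2, eif-2alpha, a subunit of the factor that brings the initiator tRNA to the ribosome, with 2 overlapping peaks ranked 2117 and 5946, iff-1, iff-2 and the cap-binding protein gene ife-5. The last 3 ranked 14878 to 28742. Of these peaks that after eef-2 was thresholded.

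The list of mRNA export genes, which holds nucleoporins and TREX subunits beside the aly genes, had 7 of 17 ends with a peak (41.2%, interval 18.4 to 67.1%), and 5 of 17 in each replicate's own list. They were the nucleoporin genes npp-10 (rank 5274), npp-25 (7362), npp-20 (8127), npp-5 (13514), npp-7 (14254) and npp-4 (25558), and the TREX gene thoc-7 with 2 peaks. The peak after npp-4 had no match in either replicate, and those after npp-20 and npp-7 had none in replicate 1. None of the 8 mRNA export gene peaks was thresholded. Ribosomal protein genes had 7 of 30 (23.3%, interval 9.93 to 42.3%), led by rps-27 (rank 1532), rps-15 (rank 4913) and rpl-31 (rank 6451). In each replicate alone it was 4 of 30 (13.3%), beside 7.75% and 7.52% of all ends in replicates 1 and 2. The peak after rps-6 ranked 11615, and those after rps-9, rps-8 and rpl-42 ranked 22905 to 28893. That after rps-8 had no match in either replicate, and those after rps-9 and rpl-42 had none in replicate 2. None of the 7 ribosomal protein gene peaks was thresholded either. Among all 672 peaks after gene ends 14 (2.08%) were, so counts this small do not set these lists apart. All 7 summits of these ribosomal protein genes lay 145 to 199 bp after the gene end, while 21.8% of their bases that meet the rule lie in the second 100 bp. In the replicates' own lists 4 of 6 and 3 of 5 such peaks lay in the second 100 bp, with distances of 136 to 480 bp and 39 to 369 bp.

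Against the bases that meet the rule, these lists had 2404 (translation factors), 1221 (mRNA export) and 1124 (ribosomal proteins) peaks per Mb, beside 237 for all protein-coding ends and at most 359 for a whole chromosome. The 3 lists together have few such bases, 2496, 6551 and 6228, so each value rests on 6 to 8 peaks. No test was made across lists.

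Chemoreceptor genes, used mainly in sensory neurons, had 16 of 667 ends with a peak (2.40%, interval 1.38 to 3.87%), by the symbols used for the list. That was 75.3 peaks per Mb meeting the rule, beside 237 for all protein-coding ends. The list took symbols that begin with sr, so genes with str symbols, such as str-243 (rank 5966) and str-47 (rank 8390), were outside it. The sr symbols also took in 32 ends of other genes whose names begin with the same letters. Among the 635 ends of named sr receptor families, separated after the values were seen, 14 had a peak (2.2%, interval 1.21 to 3.67%), led by srab-6 (rank 4307), srh-41 (rank 5152) and srt-29 (rank 14239). The strongest peak on the wider list, at rank 2766, followed srap-1, which is not of these families. Cuticle collagen genes had 1 of 67 (col-61, rank 19671), and 3 and 4 of 67 in the lists of replicates 1 and 2. Major sperm protein genes had 0 of 21 and the single vitellogenin gene none. Histone genes, whose messages end in a stem-loop in place of a poly(A) tail, had 1 of 36, his-29 at rank 20989. That peak had no match in replicate 1. In all, 3828 bases after histone genes met the rule.

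For the remaining lists, as for the collagen, sperm protein and histone genes, the interval includes the general share of 7.56%. Maternal embryo factors had 3 of 20, par-6, par-5 and 1 other, and zygotic regulators 4 of 55, led by sdz-14 (rank 3862) and hlh-30 (rank 5462). Chaperones had 3 of 20 (hsp-16.41, hsp-16.48 and cct-4), SR protein and spliceosome genes 2 of 12 (snr-7, rank 3418, and snrp-200) and tubulin and actin genes 1 of 8 (act-1). The peaks after hsp-16.48 (rank 23777) and snrp-200 (rank 28839) had no match in either replicate. Those after cct-4 (rank 28463) and par-5 (rank 9633) had none in replicate 2. Genes of the 3′ end processing machinery itself had 1 of 7, cpsf-2, at rank 28815 and without a match in replicate 1. Nuclear hormone receptors had 9 of 130 (led by nhr-104), F-box genes 10 of 175 (led by fbxb-81) and C-type lectins 12 of 138. The C-type lectins were led by clec-122, whose peak ranked 1033 in the pooled list, 478 in replicate 1 and 3956 in replicate 2.

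**Figure D5:**
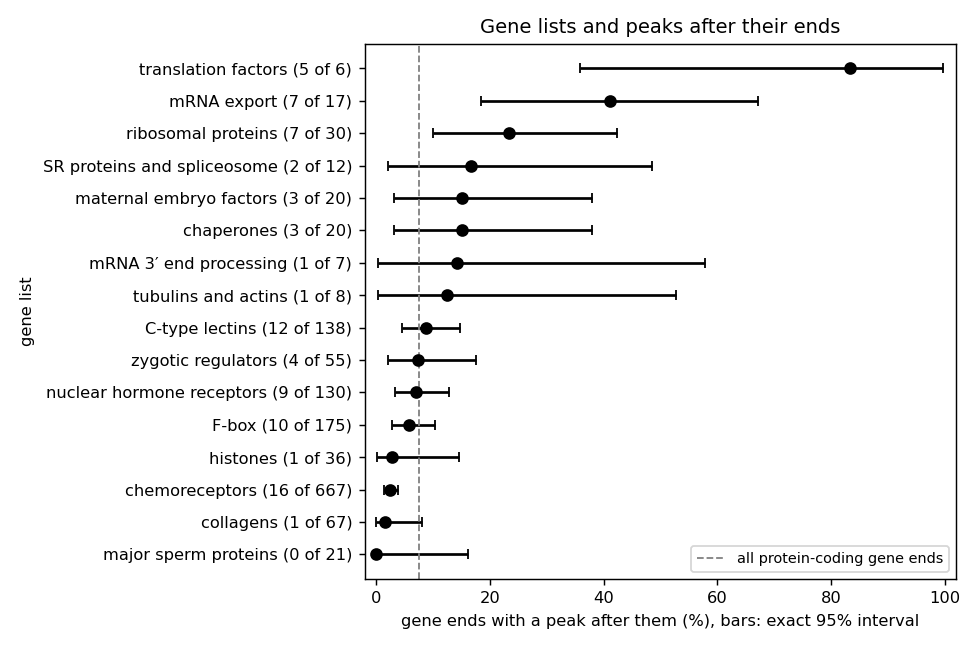
Share of gene ends with a candidate peak after them (x axis, percent, with exact 95% intervals) for 16 gene lists (y axis, with counts of ends), and for all protein-coding gene ends as the dashed line at 7.56%. Translation factors, mRNA export genes and ribosomal proteins have intervals above the line and chemoreceptors with sr symbols below it.

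Neither gene tied to the strain had a peak after its end. The 500 bp after aly-1, the gene whose product was tagged, held no member, and the strongest peak near that end had its summit 91 bp before it, inside the gene, at rank 427. After unc-119 there was no member either, and the nearest candidate, 1031 bp beyond the end, ranked 26026.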

How the data were processed

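Peak lists from 2 replicates of 1 group were read as the authors deposited them, on ce11. Per the file listings deposited with the samples, candidates were called on each replicate and on both pooled, each against the same control alignment, and the thresholded set is the optimal set passing IDR. Which aligner and caller were used, and at what IDR threshold, is not given in the sources used here. Each signal value is a score from the authors' caller, and the deposited q-value is given as −log10. Both served only to rank or describe peaks within a list. A check showed that the thresholded set is the top 881 of the pooled list by signal. Lists on ce10 were not used.

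Genes came from Ensembl release 115 (WBcel235, the coordinates of ce11), with 19973 protein-coding genes, and bases from the RefSeq copy. A replicate peak matched at 1 bp of overlap. The members and 17 gene lists were chosen with earlier results of these data known. Named genes are those before the thresholded members, the 3 leading members of each list, and aly-1 and unc-119. Others were named after their values were seen, and the choices on srpr and sr receptor genes were also made then. The scripts ran in Python 3.11.15 with scipy 1.17.1, pandas 2.3.3, numpy 2.4.6 and matplotlib 3.10.9. Alternatives were other distances, promoter windows and matches, and each replicate alone.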

Additional observations from a re-analysis of the deposited data

How the results depend on the processing

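No paired analysis was possible because there is 1 group and the result comes from no test. The share thresholded moved beyond its interval under 1 of 11 alternatives, to 4.10% with no distance kept from RNA genes. The replicates have no thresholded list of their own, and there the share among each replicate's own 881 strongest peaks ran from 1.77% to 2.75%. The number of peaks was 347 within 250 bp and 1060 within 1000 bp of the gene end, and 677 to 690 in the replicates alone. The convergent share was 41.8% within 250 bp, 33.7% within 1000 bp, 31.6% with the shorter and 43.1% with the longer promoter window, and 37.5% to 40.0% in the replicates alone. For the other distances and windows the convergent share of the bases was not counted. Within 250 bp the median distance was 131 bp, and within 1000 bp it was 387 bp with a share near other non-coding genes of 19.6%. In the replicates alone these were 226 to 244 bp and 15.2% to 15.5%. The share found in both replicates was 32.4% with summits within 100 bp, 49.0% with an overlap of 50% of each peak and 20.5% among the 10000 strongest peaks of each. No other alternative moved a share past its interval. Unknown depth limits what a single weak peak shows.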
